A study of Mus musculus with 5 samples.

Results

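The genes Ttr, Kl, Folr1, Clic6, Kcnj13, Enpp2, Otx2, Aqp1, Slc4a5 and Sostdc1, which mark the choroid plexus, were followed in bulk RNA sequencing of the brain. They were chosen as markers of its epithelium with earlier results of these data known, so counts over them are descriptions. All 10 were found by symbol among the 55573 genes of the deposited tables. The mice were C57BL/6 females, 7 to 8 weeks old when GL261 glioma cells were injected into the right caudate nucleus-putamen, and all of them carried a tumor of this line, which had been given a luciferase and mKate2 vector. In the vehicle group (3 libraries) the mice received dilution buffer, and in the UMBO group (2 libraries) ultrasound was used to open the blood-brain barrier after intravenous microbubbles. Sessions were held on days 21 and 24, and the right hemisphere was taken 24 h after the last one. Both groups carried the tumor, so no library shows the choroid plexus of a brain without one, and GL261 is a single cultured line.

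The choroid plexus is a folded epithelium that hangs in the ventricles of the brain and makes cerebrospinal fluid. Its cells pass sodium, bicarbonate, chloride and water into the ventricle, carry folate, retinol and thyroid hormone, and form the barrier between blood and cerebrospinal fluid. The tissue is small, and a hemisphere holds the plexus of the lateral ventricle and, depending on the cut, parts of the others. In bulk RNA from a hemisphere, fewer choroid plexus cells and less RNA per cell cannot be told apart.

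Libraries held 59736771 to 86164159 counts. UMBO replicate 2 stood apart from the other libraries, at 133.7 on the first principal component against -68.4 to 17.0 for the others, a component that held 78.7% of the variance. Values without it are therefore given beside the fold changes of the 10 genes and the list medians. Levels are TMM-scaled counts relative to library size (CPM) unless stated otherwise. The smallest count of any of the 10 genes in any library was 190, for which counting error alone is about 7.25%, so the spread between libraries sets the precision. Nothing in the labels says how separately the libraries were prepared, and the tests measure only the spread between these libraries.

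The choroid plexus genes were detected in every library, and 9 of the 10 had their lowest level in UMBO replicate 2. In the other UMBO library they lay near the vehicle level, within the vehicle range for 6 of the 10. None of the 10 passed edgeR's quasi-likelihood test for a difference between the groups, with adjusted p between 0.497 and 0.644, and none had an unadjusted p under 0.05. Of all 23592 genes tested 0% had an adjusted p under 0.05, and 7.37% had an unadjusted p under 0.05. DESeq2 called none of the 10 by its adjusted p, and 0.0989% of all genes. The log2 fold change of UMBO over vehicle was negative for 9 of the 10, where 49.1% of all genes had a negative value. Its median over the 10 was -0.54, against 0.01 for all genes, and it was -0.14 without UMBO replicate 2 and -1.09 without UMBO replicate 1. Without UMBO replicate 1, Kl, Clic6, Enpp2 and Slc4a5 passed edgeR's quasi-likelihood test, with adjusted p of 0.0390, 0.0390, 0.0390 and 0.0448. In that fit 18.3% of all genes were called, 8.21% toward lower values, and the lone UMBO library was assumed to vary as the vehicle libraries do. Aqp1 was the exception in direction, with both UMBO libraries above the vehicle libraries.

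**Figure D1:**
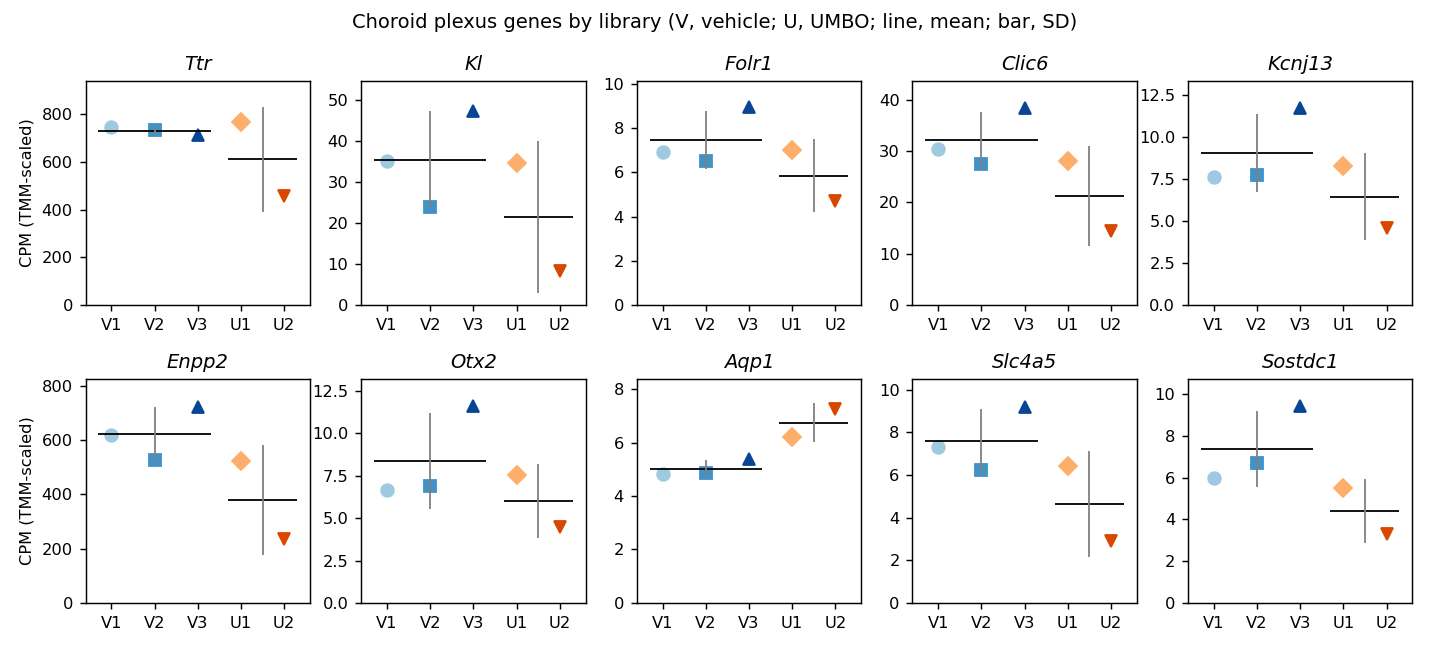
Level of each choroid plexus gene in CPM (vertical axis, from 0) in the 3 vehicle (V) and 2 UMBO (U) libraries. Points are libraries, horizontal lines are group means and vertical bars are SD. UMBO replicate 2 is the lowest library in 9 of the 10 panels, and in the Aqp1 panel it is the highest.

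Transthyretin, encoded by Ttr (chromosome 18 of GRCm38, 20665280 to 20674321), carries thyroxine and retinol-binding protein and is the most abundant transcript of choroid plexus epithelium. It was at 746, 731 and 712 CPM in vehicle replicates 1 to 3, and at 766 and 456 CPM in UMBO replicates 1 and 2. All libraries but UMBO replicate 2 thus lay within 712 to 766 CPM, and the coefficient of variation among the vehicle libraries was 2.31%, the smallest of the 10 genes. The log2 fold change was -0.26 (standard error 0.296), and without UMBO replicate 2 it was 0.07, the opposite sign. Per exonic length Ttr ranked 26 among the genes tested by mean level scaled for length (TPM), far above the other choroid plexus genes.

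Enpp2 (chromosome 15, 54838901 to 54952892, reverse strand) encodes autotaxin, the secreted enzyme that makes lysophosphatidic acid, and is expressed by oligodendrocytes as well as by choroid plexus. Its level was 618, 525 and 724 CPM with vehicle, and 522 and 236 CPM with UMBO. Both UMBO libraries lay below the vehicle libraries, although UMBO replicate 1 and vehicle replicate 2 nearly coincided. The log2 fold change was -0.71 (standard error 0.391), and -0.25 without UMBO replicate 2. The ratio of Enpp2 to Ttr counts was 0.829, 0.719 and 1.02 with vehicle and 0.682 and 0.519 with UMBO, so in UMBO replicate 2 Enpp2 was lower than Ttr was. Of the 10 oligodendrocyte genes measured for comparison (Mbp, Mog, Mobp and Mag among them), 9 had a negative log2 fold change, with a median of -0.07 (-0.042 without UMBO replicate 2). Their summed level was 6134 to 6230 CPM with vehicle and 6450 and 5494 CPM with UMBO. The part of oligodendrocytes in the Enpp2 values was not tested. Enpp2 also shares 345 exonic bases with Gm26684, a noncoding gene on the opposite strand, which was at 1.42 to 2.98 CPM with vehicle and at 0.842 and 0.443 CPM with UMBO (named after its values were seen).

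Sostdc1 (chromosome 12, 36314139 to 36318452) encodes a secreted antagonist of bone morphogenetic proteins that also binds Wnt coreceptors. It was at 5.96, 6.71 and 9.43 CPM with vehicle and at 5.49 and 3.30 CPM with UMBO. Both UMBO libraries were below the vehicle libraries, and the log2 fold change of -0.74 (standard error 0.351) was the furthest below 0 of the 10 genes. Without UMBO replicate 2 it was -0.42. Kl (chromosome 5, 150952607 to 150993817) encodes klotho, a coreceptor for fibroblast growth factor 23 that is also shed into the cerebrospinal fluid. Kl was at 35.1, 23.9 and 47.4 CPM with vehicle and at 34.6 and 8.32 CPM with UMBO. The vehicle libraries alone spanned a wide range for this gene, with a coefficient of variation of 33.1%. In UMBO replicate 2 Kl stood at 23.5% of the vehicle mean, the lowest share of the 10 genes, while UMBO replicate 1 stood at 97.5%. Its log2 fold change was -0.72 (standard error 0.612), and -0.04 without UMBO replicate 2.

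Among the genes for membrane transport, Folr1 (chromosome 7, 101858331 to 101870788, reverse strand) encodes folate receptor alpha, which moves folate into the cerebrospinal fluid. Folr1 was at 6.90, 6.51 and 8.97 CPM with vehicle and at 7.02 and 4.69 CPM with UMBO, a log2 fold change of -0.35 (standard error 0.295) and of -0.09 without UMBO replicate 2. Clic6 (chromosome 16, 92485736 to 92541243) belongs to the chloride intracellular channel family. Its level was 30.4, 27.5 and 38.3 CPM with vehicle, and 28.1 and 14.4 CPM with UMBO. UMBO replicate 1 lay inside the vehicle range for both genes. The log2 fold change of Clic6 was -0.59 (standard error 0.326), and -0.19 without UMBO replicate 2.

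Slc4a5 (chromosome 6, 83219828 to 83304945) encodes the sodium bicarbonate cotransporter NBCe2 of the ventricular face of the epithelium. It was at 7.33, 6.22 and 9.20 CPM with vehicle and at 6.41 and 2.90 CPM with UMBO, a log2 fold change of -0.70 (standard error 0.405) and of -0.24 without UMBO replicate 2. Kcnj13 (chromosome 1, 87386363 to 87394729, reverse strand) encodes the inward rectifier potassium channel Kir7.1. Kcnj13 was at 7.66, 7.76 and 11.7 CPM with vehicle and at 8.28 and 4.63 CPM with UMBO, a log2 fold change of -0.49 (standard error 0.358) and of -0.13 without UMBO replicate 2. For both genes UMBO replicate 1 was inside the vehicle range and UMBO replicate 2 was below it. The Kcnj13 count is uncertain, because 623 of its 1270 exonic bases overlap exons of Gigyf2 on the opposite strand, and the sources used here do not say whether counting used strand. Gigyf2 was at 67.4 to 91.5 CPM with vehicle and at 72.2 and 55.9 CPM with UMBO.

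Aqp1 (chromosome 6, 55336432 to 55348555) encodes the water channel of the ventricular face, and is also abundant in red blood cells and in some endothelium. It was at 4.83, 4.85 and 5.40 CPM with vehicle and at 6.22 and 7.27 CPM with UMBO. Both UMBO libraries were higher than the vehicle libraries, and UMBO replicate 2, the lowest library for the other 9 genes, was the highest here. The log2 fold change was 0.42 (standard error 0.233). It lay between 0.31 and 0.50 whichever library was left out. All 5 red blood cell genes measured (Hba-a1, Hba-a2, Hbb-bs, Hbb-bt and Alas2) had a positive log2 fold change, with a median of 0.62 (0.51 without UMBO replicate 2), and their summed level was 71.8 to 165 CPM with vehicle and 181 and 217 CPM with UMBO. Among 10 endothelial genes (Cldn5, Pecam1, Cdh5, Flt1, Tek, Emcn, Ly6c1, Slco1a4, Kdr and Tie1) 9 had a positive log2 fold change, with a median of 0.57 (0.54 without UMBO replicate 2), and 5 had an unadjusted p under 0.05 toward higher values, where 5.3% of all genes did. Their summed level was 185 to 259 CPM with vehicle and 322 and 356 CPM with UMBO. The part of either cell type in the Aqp1 values was not tested.

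Otx2 (chromosome 14, 48657677 to 48673819, reverse strand) encodes a homeodomain transcription factor needed to form and maintain choroid plexus. It was at 6.63, 6.87 and 11.6 CPM with vehicle and at 7.53 and 4.47 CPM with UMBO, with a log2 fold change of -0.48 (standard error 0.382). Vehicle replicate 3 stood well above the other 4 libraries. Without that library the log2 fold change was -0.17, and without UMBO replicate 2 it was -0.15. Otx2 shares 154 exonic bases with Otx2os1 on the opposite strand, which was under 0.5 CPM in each library. It shares a further 168 with Gm49154 on the same strand, which was under 0.1 CPM in each library.

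Across the 10 genes, 2 had both UMBO libraries below every vehicle library (Enpp2 and Sostdc1) and 1 had both above (Aqp1). Among all genes tested these shares were 11.4% for UMBO lower and 11.5% for UMBO higher, so 2 and 1 of 10 genes are near the background. Being lowest in UMBO replicate 2 was also common, at 39.8% of all genes tested, against 9 of the 10 choroid plexus genes. A highest level in vehicle replicate 3 was found in 8 of the 10, where 20.5% of all genes had it. On the log2 scale the median distance of the 10 genes from the vehicle mean was -0.06, -0.20 and 0.29 in vehicle replicates 1 to 3. It was -0.10 in UMBO replicate 1 but -1.03 in UMBO replicate 2. UMBO replicate 1 therefore lay inside the spread of the vehicle libraries and UMBO replicate 2 outside it.

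The genes did not keep a fixed ratio to one another. Ttr and Folr1 were at 62.4% and 62.8% of the vehicle mean in UMBO replicate 2, Otx2 at 53.4% and Kcnj13 at 51.1%. Clic6 and Sostdc1 were at 44.9% and 44.8%, Slc4a5 at 38.3%, Enpp2 at 38.0% and Kl at 23.5%, while Aqp1 was at 145%. Of the counts of the 10 genes, Ttr took 50.8%, 54.3% and 45.1% with vehicle and 55.0% and 61.4% with UMBO. In vehicle replicate 3 the other 9 genes were all higher relative to Ttr than in the vehicle mean, by 0.14 for Aqp1 to 0.56 for Otx2 on the log2 scale. Ttr itself was at its lowest vehicle level in that library.

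**Figure D2:**
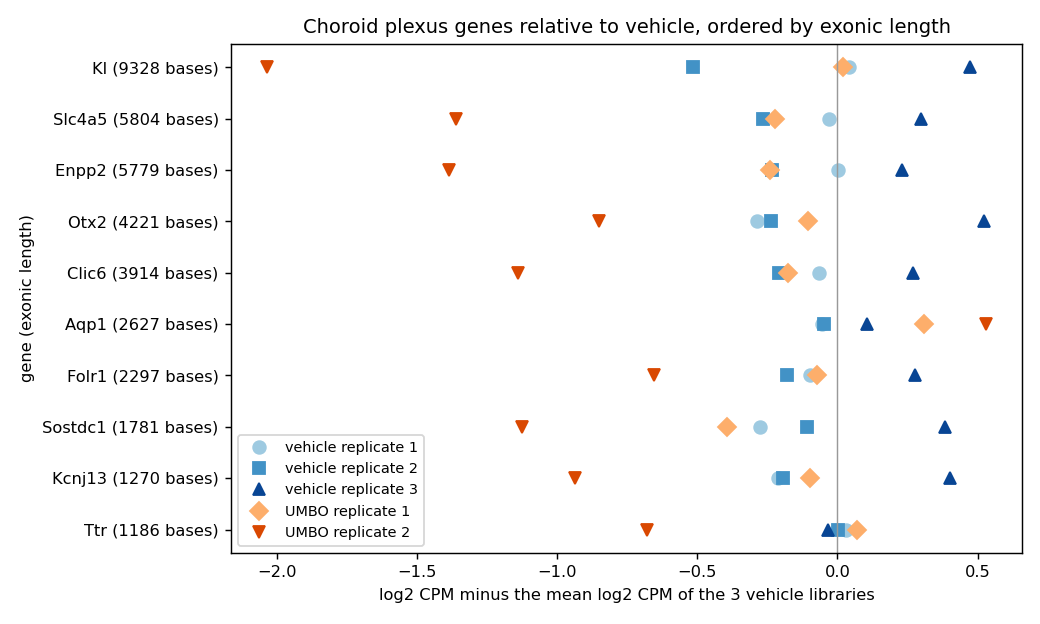
Log2 CPM of each choroid plexus gene minus the mean log2 CPM of the 3 vehicle libraries (horizontal axis), with genes ordered by exonic length (vertical axis) and 1 symbol per library. UMBO replicate 2 runs from -0.65 for Folr1 to -2.03 for Kl among the 9 lower genes, and the other 4 libraries stay between -0.51 and 0.52.

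The level in UMBO replicate 2 moved with transcript length. When all tested genes with a length were placed in 8 bins of exonic length, the median log2 level of UMBO replicate 2 relative to the vehicle mean went from 0.63 in the shortest bin to -0.60 in the longest. The same medians were 0.25 and -0.21 in vehicle replicate 2, 0.07 and -0.08 in UMBO replicate 1, and -0.11 and 0.10 in vehicle replicate 1. Among the 10 choroid plexus genes the rank correlation of exonic length with the level in UMBO replicate 2 was -0.67, and in vehicle replicate 2 it was -0.88. It was 0.35 and 0.33 in vehicle replicates 1 and 3, and -0.22 in UMBO replicate 1. These are descriptions over 10 genes, each within a single library. Set against the median of genes of like length, 9 of the 10 were lower in UMBO replicate 2. The log2 difference from that median was -1.05 for Ttr, -0.91 for Folr1, -1.31 for Kcnj13, -1.39 for Sostdc1 and -1.43 for Kl. With a length term added to each library in the edgeR fit, chosen after the data were seen, the 10 genes had a median of -0.57. Kl then stood at -0.54 and Ttr at -0.42. No RNA integrity values were used here, and the part of RNA quality was not tested.

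**Figure D3:**
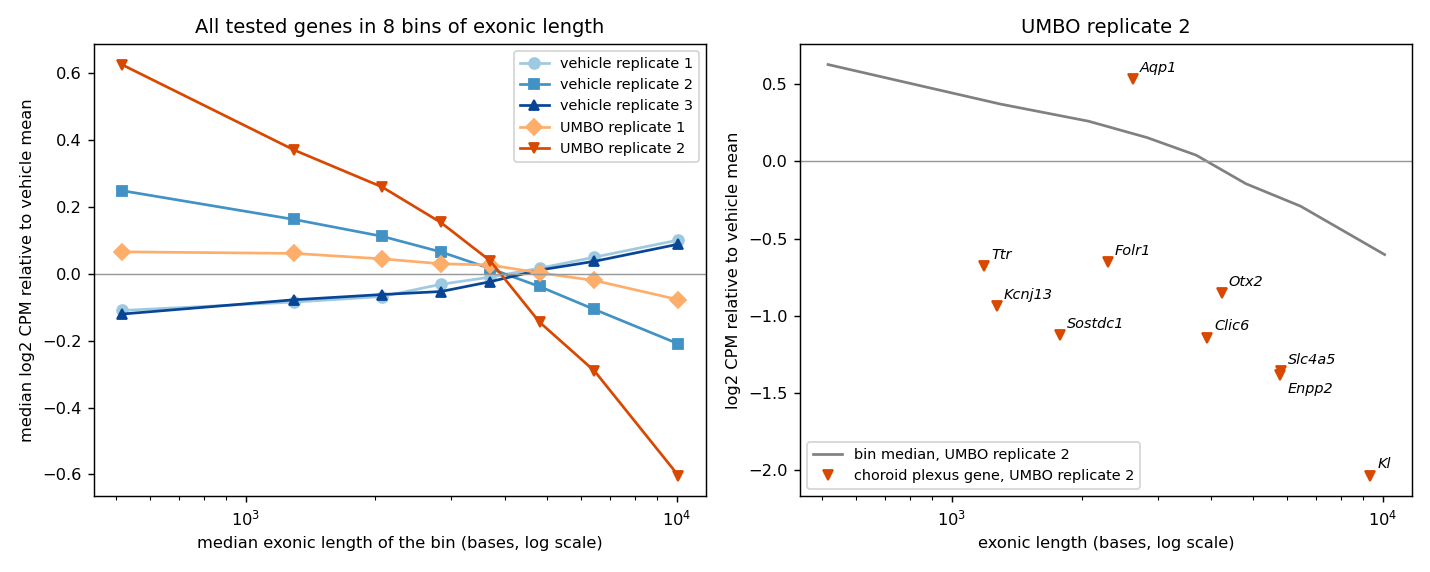
Left, median log2 level relative to the vehicle mean (vertical axis) of all tested genes in 8 bins of exonic length (horizontal axis, log scale), 1 line per library. Right, the choroid plexus genes in UMBO replicate 2 on the same horizontal axis but a different vertical range, with the bin medians of that library as a line. The line for UMBO replicate 2 falls from 0.63 to -0.60, and 9 of the 10 choroid plexus genes lie below it.

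Compared per length, the order of the genes in the vehicle libraries was led by Ttr at 1628 ± 167 TPM (SD, n = 3), followed by Enpp2 at 289 ± 80.8 TPM. These levels did not overlap each other or those of the genes below. The next genes were Clic6 (22.0 ± 6.61 TPM) and Kcnj13 (19.3 ± 7.41 TPM), then Sostdc1 (11.2 ± 4.13 TPM), Kl (10.3 ± 4.62 TPM) and Folr1 (8.73 ± 2.65 TPM). Otx2 (5.40 ± 2.51 TPM), Aqp1 (5.10 ± 0.950 TPM) and Slc4a5 (3.52 ± 1.13 TPM) were lowest. From Clic6 down, each gene overlapped its neighbor in this order between the vehicle libraries. In UMBO replicate 2 Kl was at 2.06 TPM and Aqp1 at 6.40 TPM, so their order was turned there, while in UMBO replicate 1 they were at 10.2 and 6.53 TPM.

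Promoter sequences are shown for 4 of the genes, because 3 of them (Kcnj13, Kl and Otx2) were low together in UMBO replicate 2 and Aqp1 was not. RefSeq windows on GRCm38.p6 matched 5 of the 10 genes (the fifth, Slc4a5, has its window partly in its own exon), and the 250 bases before the start were read from each. The Kcnj13 window (chr1:87394730-87394979, reverse strand) lies in an intron of Gigyf2, and the Otx2 window (chr14:48667645-48667894, reverse strand) lies in an intron of longer Otx2 transcripts. The Kl window (chr5:150952357-150952606) and the Aqp1 window (chr6:55336049-55336298) lie outside annotated genes. Capitals mark a match to the letters of the TATA box, searched as TATAAA on both strands wherever they lie in the window. Of all 32851 windows of this length, 12.4% hold a match.
Kcnj13: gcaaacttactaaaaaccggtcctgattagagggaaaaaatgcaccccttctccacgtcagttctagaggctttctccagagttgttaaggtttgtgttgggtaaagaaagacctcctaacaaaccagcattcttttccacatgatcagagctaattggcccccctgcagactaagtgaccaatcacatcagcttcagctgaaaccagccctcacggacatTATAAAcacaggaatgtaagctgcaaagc
Otx2: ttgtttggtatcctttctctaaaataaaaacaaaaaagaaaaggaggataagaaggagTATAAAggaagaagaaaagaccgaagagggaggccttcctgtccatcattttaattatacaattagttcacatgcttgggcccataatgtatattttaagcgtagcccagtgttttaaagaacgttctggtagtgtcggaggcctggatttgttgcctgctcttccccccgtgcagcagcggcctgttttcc
Kl: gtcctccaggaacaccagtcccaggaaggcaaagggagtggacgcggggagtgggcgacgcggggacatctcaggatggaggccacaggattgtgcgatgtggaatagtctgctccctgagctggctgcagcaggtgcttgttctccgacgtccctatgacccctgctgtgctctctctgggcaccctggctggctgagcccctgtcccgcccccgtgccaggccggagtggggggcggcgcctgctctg
Aqp1: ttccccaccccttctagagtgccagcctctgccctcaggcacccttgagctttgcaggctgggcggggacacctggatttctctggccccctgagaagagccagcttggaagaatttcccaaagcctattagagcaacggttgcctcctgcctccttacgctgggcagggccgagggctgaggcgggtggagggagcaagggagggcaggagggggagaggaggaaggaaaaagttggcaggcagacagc
In Kcnj13 the match began 29 bases before the start, and in Otx2 it began 192 bases before the start. Among the 5 genes with a window a match was found in 3. The third was Slc4a5, with a match on the opposite strand 127 bases before its start. Otx2 has several windows, and only the window shown holds a match. Counts by gene, here and for the next motif, are therefore not on the same basis as shares of all windows. The OTX-type homeodomain core, searched as TAATCC on both strands, is held by 6.25% of all windows. It was in none of the 4 windows shown, and among the 5 genes with a window it was found in 1, another Otx2 window that lies partly in an exon. The windows also differed in base composition, with a GC content of 45.2% for Kcnj13 and 42.0% for Otx2, against 66.8% for Kl and 62.0% for Aqp1. A match of letters is a description and not a bound site.

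A further 25 genes of choroid plexus epithelium were compared in the same fit. Of these, 18 had a negative and 7 a positive log2 fold change, with a median of -0.21 (-0.14 without UMBO replicate 2), and none had an unadjusted p under 0.05, where 2.06% of all genes did so toward lower and 5.3% toward higher values. UMBO replicate 2 was the lowest library in 15 of the 25. Both UMBO libraries were below every vehicle library for 5 genes and above for 2, against 11.4% and 11.5% of all genes. Ace, which encodes angiotensin-converting enzyme and is also an endothelial gene, was at 41.3, 36.4 and 48.5 CPM with vehicle and at 33.5 and 19.96 CPM with UMBO. Igf2, a growth factor of choroid plexus and meninges, was at 2.06, 2.14 and 4.28 CPM with vehicle and at 1.61 and 0.107 CPM with UMBO. The same separation was seen for Prr32 (2.13 ± 0.167 CPM with vehicle, SD, n = 3, against 1.84 and 0.702 CPM), and by a narrow margin for Krt18 and Cab39l, with log2 fold changes of -0.35 and -0.21. Igfbp2, which binds insulin-like growth factors, was at 46.0 ± 13.0 CPM with vehicle (SD, n = 3) and at 59.8 and 78.9 CPM with UMBO. Slc31a1, the copper importer, was at 30.2 ± 1.85 CPM with vehicle (SD, n = 3) and at 34.7 and 36.7 CPM with UMBO. Of the genes with the highest TPM, Slc29a4, a monoamine transporter, was highest in UMBO replicate 1 at 33.6 CPM against 14.2 to 24.0 CPM with vehicle and 14.2 CPM in UMBO replicate 2. The other, 1500015O10Rik (Ecrg4), was at 10.0 ± 1.74 CPM with vehicle (SD, n = 3) and 10.2 and 7.15 CPM with UMBO. The wider list was thus mixed in direction where the 10 genes were nearly uniform. That difference between the lists was not tested, and both lists were chosen with earlier results of these data known.

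**Figure D4:**
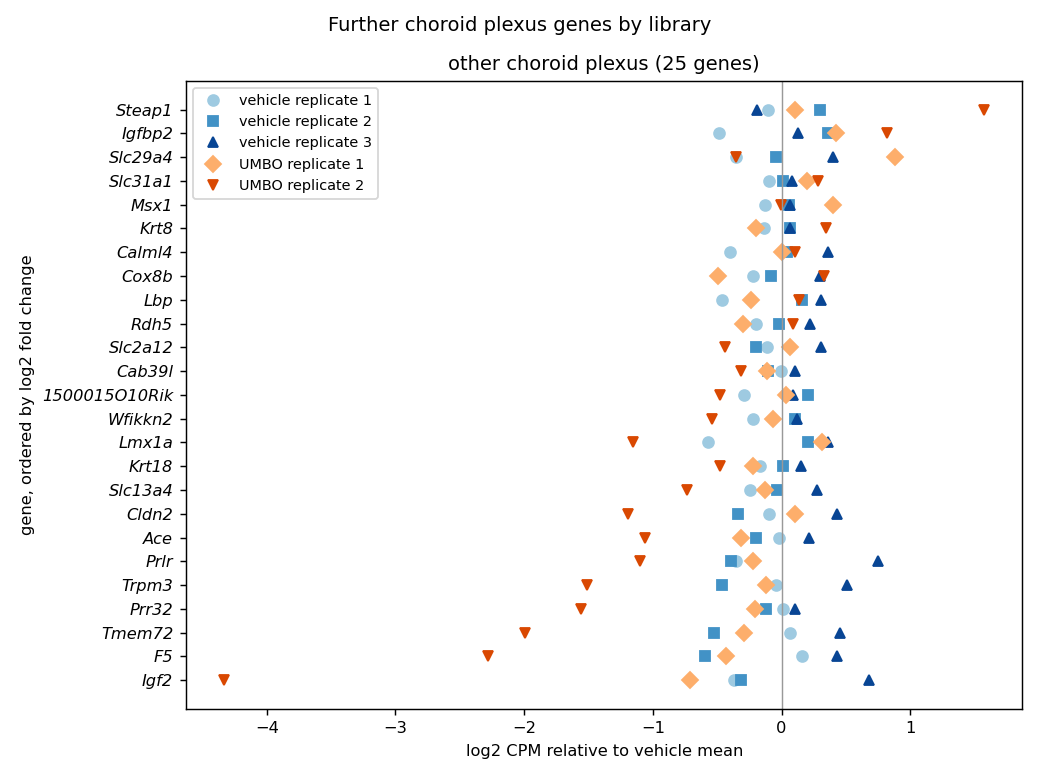
Log2 CPM relative to the vehicle mean (horizontal axis) of 25 further choroid plexus genes, ordered by log2 fold change (vertical axis), 1 symbol per library. UMBO replicate 2 is the lowest library for 15 of the 25 genes, and Steap1 and Igfbp2 are among those where it is the highest.

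Of 11 genes for ion and fluid transport in this epithelium, 8 had a negative and 3 a positive log2 fold change, with a median of -0.36 (-0.10 without UMBO replicate 2), and none had an unadjusted p under 0.05. Many of them are expressed by neurons or glia too. Kcne2, a potassium channel subunit largely restricted to choroid plexus in the brain, was at 6.19, 6.28 and 9.05 CPM with vehicle and at 5.78 and 2.67 CPM with UMBO. The libraries stood in the same order as for Sostdc1, with a log2 fold change of -0.76 (standard error 0.409). Car12, a carbonic anhydrase, was at 26.0 ± 2.64 CPM with vehicle (SD, n = 3) and at 24.3 and 12.7 CPM with UMBO. Slc12a7, a potassium chloride cotransporter, was at 10.9 ± 3.63 CPM with vehicle (SD, n = 3) and at 11.9 and 25.1 CPM with UMBO.

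Genes for carriers, receptors and enzymes that act with the products of the 10 genes were taken as a list of 16. Of these, 9 had a positive and 7 a negative log2 fold change, with a median of 0.10, and 4 had an unadjusted p under 0.05, all with higher levels in UMBO, where 5.3% of all genes did so. The median was 0.20 without UMBO replicate 2. Their adjusted p was 0.497 each in edgeR's quasi-likelihood test. Stra6, the retinol uptake receptor, was at 5.20, 6.02 and 6.26 CPM with vehicle and at 8.35 and 9.99 CPM with UMBO. Lpar4 and Lpar6, receptors for the lysophosphatidic acid that autotaxin makes, stood at a log2 fold change of 1.13 (standard error 0.384) for the former and 0.97 (standard error 0.349) for the latter. For these 3 genes both UMBO libraries were above every vehicle library, as they were for 11.5% of all genes. Their levels are sums over all cell types of the hemisphere, and whether choroid plexus cells express them was not examined.

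Lists for other cells and regions that a hemisphere can hold were read beside these values. Ependymal genes, which mark the ciliated lining of the ventricles next to the choroid plexus, had a median log2 fold change of 0.06, with 7 of 12 positive, and their median level in UMBO replicate 2 was 0.03 on the log2 scale relative to the vehicle mean. The defining ependymal gene Foxj1 was at 14.6 to 23.5 CPM with vehicle and at 21.8 and 19.99 CPM with UMBO (named after its values were seen). Both UMBO libraries lay within the vehicle range for Foxj1. UMBO replicate 2 was the lowest library for 4 of the 12 ependymal genes (33.3%), below the share of 39.8% among all genes. Among these 4 were Hydin, Dnah11 and Spag6l, at 22.8%, 40.7% and 47.7% of the vehicle mean in that library. Hydin (18037 bases) and Dnah11 (14458 bases) belong to the longest bin of exonic length, whose median in UMBO replicate 2 was -0.60. Spag6l (4559 bases) belongs to a bin with a median of -0.14. The part of length in these values was not tested. The ependymal median was 0.15 without UMBO replicate 2, -0.015 without UMBO replicate 1, -0.12 without vehicle replicate 1 and 0.25 without vehicle replicate 3. Neuronal genes were lower in UMBO replicate 2, as the choroid plexus genes were, with a median of -0.95 relative to the vehicle mean in that library, -0.18 in UMBO replicate 1, and a median log2 fold change of -0.41 with 8 of 8 negative (-0.19 without UMBO replicate 2). The median log2 fold change was 0.85 for meninges and fibroblasts and -0.57 for striatum (-0.74 without UMBO replicate 2). Thalamus and habenula stood at -0.09, but at 0.026 without UMBO replicate 2 and 0.098 without vehicle replicate 3. Astrocytes stood at 0.15, at 0.29 without UMBO replicate 2 and at -0.40 without UMBO replicate 1. Hippocampus stood at 0.35, and at 0.81 without UMBO replicate 2. Hippocampal genes were high in UMBO replicate 1, at a median of 0.87 relative to the vehicle mean and -0.57 in UMBO replicate 2, and their median log2 fold change was -0.62 without UMBO replicate 1.

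Of 10 meningeal and fibroblast genes, 8 had a positive log2 fold change (median 0.26 without UMBO replicate 2). An unadjusted p under 0.05 toward higher values was found for 4, where 5.3% of all genes had it. The 2 negative genes were Ogn and Slc22a6, at -0.56 and -0.28 (named after their values were seen). Ogn stood at 50.0% of the vehicle mean in UMBO replicate 2. Dcn, which encodes decorin and is also expressed in the stroma of the choroid plexus, was at 13.9, 20.6 and 23.3 CPM with vehicle and at 53.8 and 47.3 CPM with UMBO. Col1a1 was at 16.1, 23.3 and 23.4 CPM with vehicle and at 46.4 and 47.3 CPM with UMBO. For both, the UMBO libraries resembled each other and lay apart from the vehicle libraries. Their adjusted p in edgeR's quasi-likelihood test was 0.497.

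In UMBO replicate 2 the lists for monocytes and macrophages and for proliferation were high while the choroid plexus list was low. Their median levels relative to the vehicle mean were 3.69 and 3.10 in that library, against 0.51 and 1.13 in UMBO replicate 1 and at most 1.28 and 0.96 in the vehicle libraries. The summed level of the 10 monocyte and macrophage genes was 86.1 to 230 CPM with vehicle and 194 and 584 CPM with UMBO, and that of the 10 proliferation genes was 30.7 to 99.5 CPM with vehicle and 106 and 449 CPM with UMBO. All 20 of these genes had a positive log2 fold change, with medians of 2.23 and 2.25, and of -0.02 and 1.00 without UMBO replicate 2. In edgeR's quasi-likelihood test, all 10 proliferation genes had an unadjusted p under 0.05 toward higher values, and 2 of the monocyte and macrophage genes did, against 5.3% of all genes. None had an adjusted p under 0.05. Both UMBO libraries were above every vehicle library for 7 proliferation genes and for 2 monocyte and macrophage genes, against 11.5% of all genes. The part of either list in the lower share of choroid plexus transcripts was not tested. Of 10 genes of hindbrain and cerebellum, only 4 passed the filter on low counts, and these 4 stood at a median log2 fold change of 0.84 (0.019 without UMBO replicate 2 and -0.53 with a stricter filter), while Hoxa2, Hoxb2, Hoxb3, Hoxb5, Pcp2 and Gabra6 were at 0.153 CPM or less in each library (named after their values were seen).

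**Figure D5:**
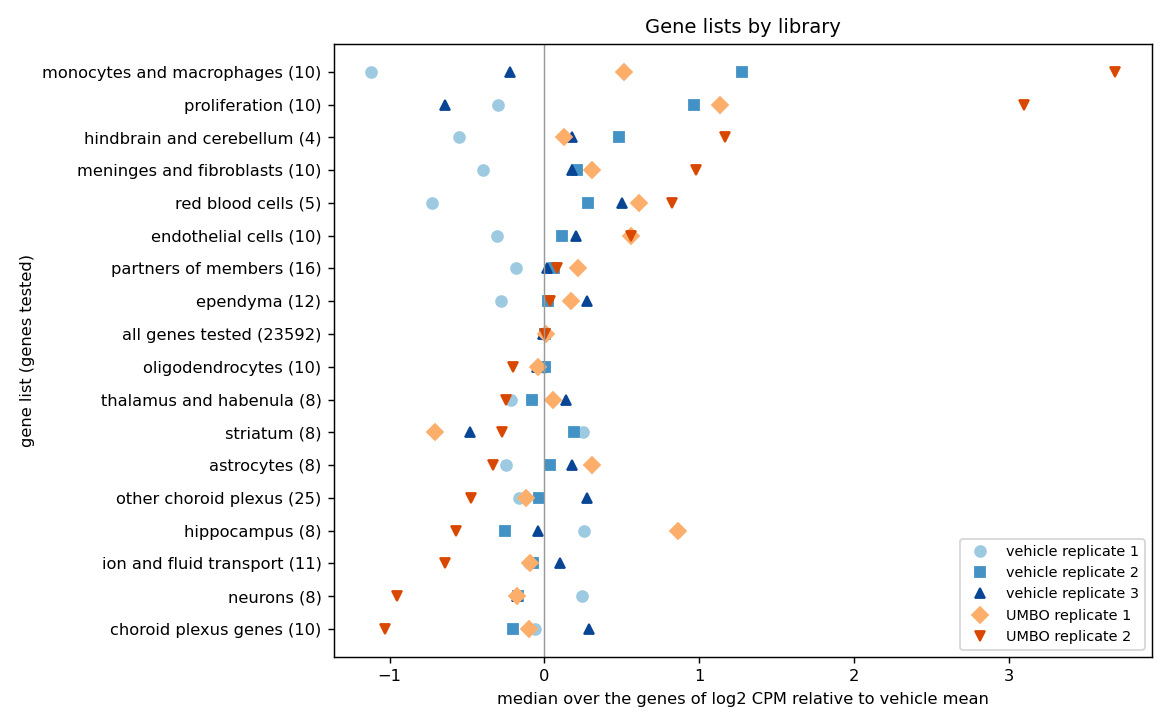
Median over the tested genes of each list of the log2 CPM relative to the vehicle mean (horizontal axis), 1 symbol per library, with lists (vertical axis) ordered by UMBO replicate 2. The choroid plexus genes are at the bottom with -1.03 in UMBO replicate 2, next to neurons at -0.95, and the ependymal list is at 0.03.

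Genes other than the 10 were ranked by how near their profile over the 5 libraries lay to the mean profile of the 10. The nearest were not genes of the choroid plexus lists. That mean profile, centred on its own mean, was 0.12, 0.01 and 0.50 with vehicle and 0.12 and -0.75 with UMBO, in log2 units. The 10 nearest of 16432 genes were Impact, Aass, Gli2, Lhfpl3, Tmc7, Tmtc2, Firre, A330074H02Rik, Daam2 and Btbd11, at a root mean square distance of 0.021 to 0.045 on that scale. Impact, which regulates the kinase Gcn2 and is expressed in neurons, was at 318, 289 and 405 CPM with vehicle and at 305 and 171 CPM with UMBO. None of the 10 is in any of the lists. Of the 24 further choroid plexus genes that could be ranked, the nearest was Ace at rank 135, and the median rank was 6859. The 10 genes were themselves left out of the ranking, and Aqp1 ran against their mean profile in UMBO replicate 2. Genes outside the lists thus came close to this mean profile. The ranks do not show how closely choroid plexus genes as a whole follow it.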

How the data were processed

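The data are RNA sequencing of tumor-bearing right hemispheres from 5 mice, 3 given vehicle and 2 given UMBO, grouped by the sample labels. The study describes 3 mice in each group, and the third UMBO mouse was not analysed here. The authors mapped reads with STAR 2.7.2a on GRCm38, and their deposited files hold a raw, unnormalized count for each gene. The annotation release and strand setting are not given in the sources used here. Symbols, positions and exonic lengths came from GENCODE M21 on the same build. Genes without a symbol took 0.00173% or less of any library.

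After filterByExpr and TMM scaling, 23592 of 55573 genes were tested in edgeR 4.0.16 under R 4.3.3 by the quasi-likelihood method, adjusted by Benjamini-Hochberg over all of them at a threshold of 0.05. Log2 CPM used a prior count of 2, and TPM was computed from counts and exonic length. On simulated counts for 23592 genes with 200 changed 4-fold, edgeR called 153 of the changed and 5 unchanged genes, and DESeq2 1.42.0 called 191 and 91. The 10 genes and the 16 other lists were chosen with earlier results of these data known, so lists were described by counts and medians and were not tested. Genes named were the 10, those of the further choroid plexus list that did not overlap between the groups or had the 4 highest TPM, at most 4 of each other list with the smallest p, and the 10 nearest profiles. Other genes were named after their values were seen. Alternatives covered scaling, filters, DESeq2, a block for the replicate number, omission of each library, and a length term added after the data were seen. No 2 libraries were alike within sampling noise (chi-square of 58.1 or more per gene). Some genes of the lists are not reported here by name.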

Additional observations from a re-analysis of the deposited data

How the results depend on the processing

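With 2 UMBO libraries that differ from each other, the values rest on which of them is kept. With single libraries left out, the count of the 10 genes with an adjusted p under 0.05 ran from 0 to 4 in edgeR's quasi-likelihood test, the 4 without UMBO replicate 1, and their median log2 fold change from -1.09 to -0.14. Ttr ran from -0.71 to 0.072, and was on the other side of 0 without UMBO replicate 2. Under the same omissions the list medians ran from -0.51 to -0.14 for further choroid plexus genes, -0.68 to -0.10 for ion and fluid transport, 0.04 to 0.20 for partners, -0.12 to 0.25 for ependyma, 0.26 to 0.98 for meninges and fibroblasts, -0.23 to -0.042 for oligodendrocytes, -0.99 to -0.19 for neurons, -0.32 to 0.10 for thalamus and habenula, -0.62 to 0.81 for hippocampus, -0.78 to -0.34 for striatum, 0.019 to 1.20 for hindbrain and cerebellum, 0.41 to 0.67 for endothelial cells, -0.40 to 0.29 for astrocytes, -0.019 to 3.53 for monocytes and macrophages, 1.00 to 2.91 for proliferation and 0.31 to 0.87 for red blood cells.

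Scaling by library size only put oligodendrocytes at 0.042 and thalamus and habenula at 0.018, on the other side of 0. A stricter filter put oligodendrocytes at -0.032 and hindbrain and cerebellum at -0.53. The length term put partners at 0.26, ependyma at -0.075 and oligodendrocytes at -0.12. The cause was not tested. The replicate block put thalamus and habenula at 0.10. With the replicate block, 0 of the 10 choroid plexus genes had an adjusted p under 0.05 and 4 an unadjusted one (Kl, Clic6, Enpp2 and Slc4a5, all lower, where 11.6% of all genes were), with a median of -0.42, while 2337 of all genes were called against 0 without the block. Libraries with the same number deviated together from their group means, with correlations of 0.45 and 0.76. With only 2 UMBO libraries, their deviations are exact opposites, so these are not 2 independent pairs. Nothing in the labels ties the libraries of a pair, and the pairing is not established. DESeq2 called 40 genes against 0 in edgeR, none of them among the 10.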
